A study of Mus musculus with 23 samples.

Results

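The tissue difference in DNA methylation was examined in embryos whose oocytes could not set down methylation of their own. The members were autosomal windows of the genome with a methylation value in all 5 libraries of matDKO/CAST embryos at embryonic day (E) 6.5, 2 of epiblast and 3 of extra-embryonic ectoderm (ExE). These were 194850 of the 320494 windows on the 19 autosomes (60.8%). Each window had been laid out to hold a fixed number of CpGs, the dinucleotides that carry the methyl group, so that a short window is dense in CpGs and a long window is poor in them. In the reference genome the windows held a median of 60 CpGs, and their median length was 6063 bp.

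The matDKO/CAST embryos came from females with floxed alleles of Dnmt3a and Dnmt3b and a Zp3-cre transgene, crossed to CAST males. Zp3-cre is active in the growing oocyte, so both genes were lost there, and the embryos carried 1 null and 1 paternal copy of each gene (Dnmt3a -/+, Dnmt3b -/+). The knockout females were on a mixed B6 and 129 background. The wild-type embryos beside them were B6/CAST, with 3 epiblast and 2 ExE libraries, the cross of the same direction, and CAST/B6, with the same numbers. All libraries were made from pools of embryos by post-bisulphite adaptor tagging (PBAT), which reads methylation across the genome from few cells because adaptors are joined to the DNA only once bisulphite has converted it. One B6/CAST epiblast library carried no replicate number that could be matched and is called unnumbered. The values were not separated by parental allele. At E7.5, 8 wild-type libraries of single embryos were available, and they are given as values only.

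DNMT3A and DNMT3B are the enzymes that place methylation on unmethylated DNA, and in the growing oocyte they methylate mainly transcribed gene bodies and the maternal imprints. After fertilization most of this methylation is lost, and the embryo is methylated anew around implantation. The epiblast, which forms the embryo proper, then becomes highly methylated, whereas ExE, a trophoblast tissue that contributes to the placenta, keeps a lower genome-wide level and gains methylation at a subset of CpG islands. CpG islands are short CpG-dense stretches, mostly at gene starts, that are unmethylated in most tissues. Since methylation from the oocyte was missing in matDKO/CAST, the comparison asked whether epiblast and ExE still differed, and in which windows.

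Sequences are given for 6 of the windows described below, chosen with their values known, so that their CpG density can be seen. The first 4 were among the largest tissue differences, and those of Lhx9 and Otx2 are start windows with smaller ones. The central 200 bases of each are from the plus strand of GRCm38, with each CpG in capitals. The first 2 were higher in the epiblast, in Plce1 at chr19:38589906-38590105 and in Sele at chr1:164052398-164052597. The next 4 were higher in ExE, near Nr2f2 at chr7:70348753-70348952, in Tagln2 at chr1:172504308-172504507, in Lhx9 at chr1:138842264-138842463 and in Otx2 at chr14:48667250-48667449. The last is the Elf5 promoter, 250 bases up to the start on the plus strand from RefSeq (GRCm38.p6, chr2:103411848-103412097), shown because the methylation of this promoter is a known mark of the 2 lineages.
Plce1 window: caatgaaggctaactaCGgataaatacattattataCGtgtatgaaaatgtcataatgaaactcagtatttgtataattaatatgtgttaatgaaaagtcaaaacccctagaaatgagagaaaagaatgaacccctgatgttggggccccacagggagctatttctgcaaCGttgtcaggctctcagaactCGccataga
Sele window: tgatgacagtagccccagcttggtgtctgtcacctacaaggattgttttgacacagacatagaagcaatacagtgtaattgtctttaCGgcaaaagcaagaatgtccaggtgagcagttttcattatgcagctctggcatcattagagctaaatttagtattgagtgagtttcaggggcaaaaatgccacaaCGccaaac
Nr2f2 window: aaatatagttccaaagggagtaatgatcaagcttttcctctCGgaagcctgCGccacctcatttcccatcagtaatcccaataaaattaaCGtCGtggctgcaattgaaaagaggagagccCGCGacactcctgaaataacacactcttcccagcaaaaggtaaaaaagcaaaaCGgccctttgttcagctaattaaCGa
Tagln2 window: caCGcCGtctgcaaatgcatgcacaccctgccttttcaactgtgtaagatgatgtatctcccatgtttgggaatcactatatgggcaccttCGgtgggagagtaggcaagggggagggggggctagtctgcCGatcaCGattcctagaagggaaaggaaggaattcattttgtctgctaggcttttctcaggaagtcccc
Lhx9 window: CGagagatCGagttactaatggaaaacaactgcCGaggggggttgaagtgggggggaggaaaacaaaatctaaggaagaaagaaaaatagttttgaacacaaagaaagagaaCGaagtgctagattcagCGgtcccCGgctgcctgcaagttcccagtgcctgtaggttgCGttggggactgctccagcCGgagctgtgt
Otx2 window: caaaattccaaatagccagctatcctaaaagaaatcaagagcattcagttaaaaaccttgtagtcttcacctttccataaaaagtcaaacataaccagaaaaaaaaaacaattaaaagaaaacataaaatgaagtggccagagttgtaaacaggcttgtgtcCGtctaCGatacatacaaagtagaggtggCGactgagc
Elf5 promoter: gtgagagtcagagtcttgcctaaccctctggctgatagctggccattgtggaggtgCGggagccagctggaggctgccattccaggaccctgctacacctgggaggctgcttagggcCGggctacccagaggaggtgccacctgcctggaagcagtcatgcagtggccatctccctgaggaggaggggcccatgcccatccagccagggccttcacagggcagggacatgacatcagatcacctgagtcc

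Over its whole length the Plce1 window held 12.5 CpGs per kb and the Sele window 17.2. The windows near Nr2f2 and in Tagln2 held 27.0 and 22.0, and those of Lhx9 and Otx2 held 43.8 and 35.1. Density did not part all named windows by direction. The Hsd17b4 window, with ExE higher, held 72 CpGs in 5349 bp, and the window nearest to Drd3, with the epiblast higher, held 55 in 2467 bp. The Elf5 promoter stretch held 2 CpGs.

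The epiblast was more methylated than ExE in matDKO/CAST. Mean methylation over the windows was 53.5% and 51.7% in epiblast replicates 1 and 3, and 40.2%, 40.7% and 38.5% in ExE replicates 1, 2 and 3. The epiblast libraries lay above all ExE libraries, and the gap was several times the spread within either tissue. The epiblast averaged 52.6% ± 1.21 (SD, n = 2) against 39.8% ± 1.14 (SD, n = 3) for ExE, which is 12.8 percentage points more (SE 1.08). A two-sided exact permutation test over the 5 libraries had p = 0.1, the smallest value that 2 against 3 libraries allow, so that p alone could not pass a threshold of 0.05. ExE held 75.6% of the epiblast level. Median methylation over windows was 56.7% and 54.5% in the epiblast and 39.6%, 39.5% and 36.4% in ExE.

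The share of highly methylated windows was lower in ExE and that of lowly methylated windows higher. Windows over 80% methylation made up 9.19% and 9.17% of the epiblast libraries, and 1.34%, 2.86% and 4.29% of the ExE libraries. Windows under 20% made up 9.69% and 10.9% of the epiblast libraries, and 13.4%, 16.0% and 22.6% of the ExE libraries. ExE replicate 3 had the most windows at both ends among the ExE libraries. It was also the ExE library with the fewest windows measured, 284973 of the autosomal total against 319164 and 318097, and epiblast replicate 3 had the fewest of all with 231496. The tables hold no read numbers, so the depth behind a window is unknown and no interval for a single value can be given. The part of depth in these shares was not tested.

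B6/CAST embryos, with oocyte methylation, had higher levels in both tissues and a larger difference in points. Over the 181528 windows with a value in all 10 libraries, the B6/CAST epiblast libraries were at 64.9%, 70.2% and 73.8% (replicates 1, 3 and unnumbered) and the ExE libraries at 52.5% and 52.6%. The epiblast averaged 69.6% ± 4.45 (SD, n = 3) against 52.6% ± 0.035 (SD, n = 2) for ExE, 17.1 points more (SE 2.57). Over the same windows matDKO/CAST was at 53.0% and 40.1%, a difference of 12.9 points (SE 1.07). The tissue difference in points was therefore 4.16 lower in matDKO/CAST, and this value carries no test of its own. It moved to -2.10 without the unnumbered B6/CAST epiblast library and to -6.52 without B6/CAST epiblast replicate 1. With both crosses as the wild type it was -2.59, and with CAST/B6 alone -1.04. With windows weighted by length it was -6.42. As a ratio the genotypes were close, with ExE at 75.6% of the epiblast in matDKO/CAST and 75.5% in B6/CAST. In CAST/B6, over the 167307 windows with a value in all 15 libraries, the epiblast was at 79.1% and ExE at 65.0%, a difference of 14.1 points and a ratio of 82.2%.

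**Figure D1:**
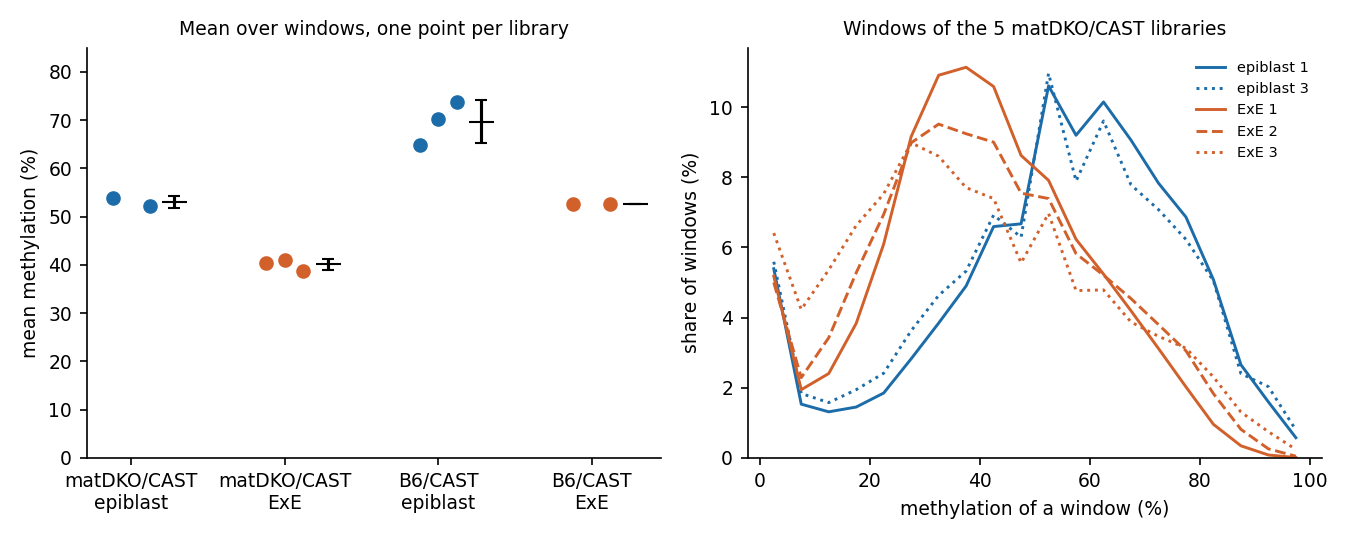
Left, mean methylation in percent of each library over the 181528 windows measured in 10 libraries, with the group mean and SD as a bar beside the points; right, the share of windows at each methylation level, in steps, for the 5 matDKO/CAST libraries over their 194850 windows. The matDKO/CAST epiblast (53.0%) lies at the level of B6/CAST ExE (52.6%), and the ExE curves peak at lower methylation than the epiblast curves.

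Window by window, the difference went to the epiblast in most of the genome. It was positive in 157567 windows (80.9%), negative in 36699 and zero in 584. The median difference was 12.6 points, with 2.36 and 22.5 at the quartiles and -8.84 and 36.1 at the 5th and 95th percentiles. A difference of 20 points or more was found in 60107 windows with the epiblast higher and in 1375 with ExE higher. In 78686 windows, 40.4% of those tested, both epiblast libraries lay above all 3 ExE libraries. The opposite held in 5852 windows, which is 3.0%.

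No single window could be called from these 5 libraries alone. In limma, a linear model with a variance shared across windows, with Benjamini-Hochberg adjustment, 0 windows (0.0%) had an adjusted p under 0.05, and the smallest adjusted p was 0.0934. At an unadjusted p under 0.05 there were 51068 windows (26.2%) with the epiblast higher and 1169 (0.6%) with ExE higher. The median SE of a window's difference was 8.47 points. When the spread was estimated from all 15 E6.5 libraries, an alternative, the same contrast was called in 32798 of 167307 windows (19.6%) with the epiblast higher and in 503 (0.301%) with ExE higher. Calls of single windows below are from that 15-library fit, which assumes that the matDKO/CAST libraries vary like the wild-type ones.

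Both genotypes were also contrasted in a 10-library limma fit over 181528 windows. The B6/CAST contrast was called in 39628 windows (21.8%) with the epiblast higher and in 286 (0.158%) with ExE higher. The matDKO/CAST contrast was called in 19757 (10.9%) and 216 (0.119%) in the same order. Without overlap, the B6/CAST epiblast lay above ExE in 111337 windows (61.3%) and below it in 3740 (2.06%). Of the 74010 windows of this set in which the matDKO/CAST epiblast lay above ExE, 54797 (74.0%) did so in B6/CAST as well, which is 49.2% of the B6/CAST list. Of the 5350 windows in which matDKO/CAST ExE lay above the epiblast, 704 (13.2%) did so in B6/CAST, which is 18.8% of that list, and 1478 (27.6%) had the epiblast above in B6/CAST. Across the 181528 windows, the differences of the genotypes had a Pearson r of 0.447, a description over windows that share libraries and CpG density. A test of the difference between the differences, the interaction term in limma, called 0 windows (0.0%), with a smallest adjusted p of 0.637. At an unadjusted p under 0.05 there were 10141 windows with a smaller epiblast-minus-ExE difference in matDKO/CAST and 2788 with a larger one. The median interaction was -3.45 points, and 0.892 points with a replicate block. In that block the B6/CAST difference rests on epiblast replicate 1 and ExE replicate 1 alone, so it cannot decide whether the excess is stable. Subtracting the mean of each library takes out the genome-wide part of the difference, and the smaller and larger ones then numbered 6645 and 5672. The excess of smaller differences thus depended on whether the genome-wide part was kept. Leaving out 1 library at a time, the smaller ones ran from 6220 (B6/CAST ExE replicate 1 left out) to 16421 (matDKO/CAST epiblast replicate 1 left out).

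The size of the tissue difference followed the density of CpGs. Windows under 1 kb, the densest in CpGs, were nearly unmethylated in matDKO/CAST, at 2.91% and 2.64% in the epiblast and 3.19%, 3.31% and 3.31% in ExE. Here all ExE libraries lay above the epiblast, by 0.49 points (SE 0.142; exact permutation p = 0.1). Windows of 1 to 2 kb were at 25.4% ± 1.32 (SD, n = 2) and 23.5% ± 0.862 (SD, n = 3), and the lower epiblast library, at 24.44%, lay just above the highest ExE library, at 24.40%. From 2 kb on the gap between the tissues was wider. The difference was 10.0 points (SE 1.29) at 2 to 4 kb, 13.8 (SE 0.943) at 4 to 8 kb and 16.4 (SE 1.83) at 8 to 14 kb.

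The longest windows, of 14 kb and more, were at 46.6% and 43.7% in the epiblast and 33.0%, 26.0% and 22.8% in ExE. The ExE libraries spread most in this class, with an SD of 5.22 points, and the difference of 17.9 points had an SE of 3.35. In these CpG-poor windows ExE held 60.3% of the epiblast level in matDKO/CAST and 54.5% in B6/CAST, over the same windows. The B6/CAST difference was 30.9 points there, 23.8 at 8 to 14 kb, 17.1 at 4 to 8 kb and 11.4 at 2 to 4 kb. Under 1 kb it was -0.77, with ExE higher as in matDKO/CAST. Relative to B6/CAST the matDKO/CAST difference was -1.31 points at 2 to 4 kb and -12.95 points at 14 kb and more, as values with no test. Fewer of the longest windows could be examined, 41.9% of them against 71.4% at 2 to 4 kb.

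**Figure D2:**
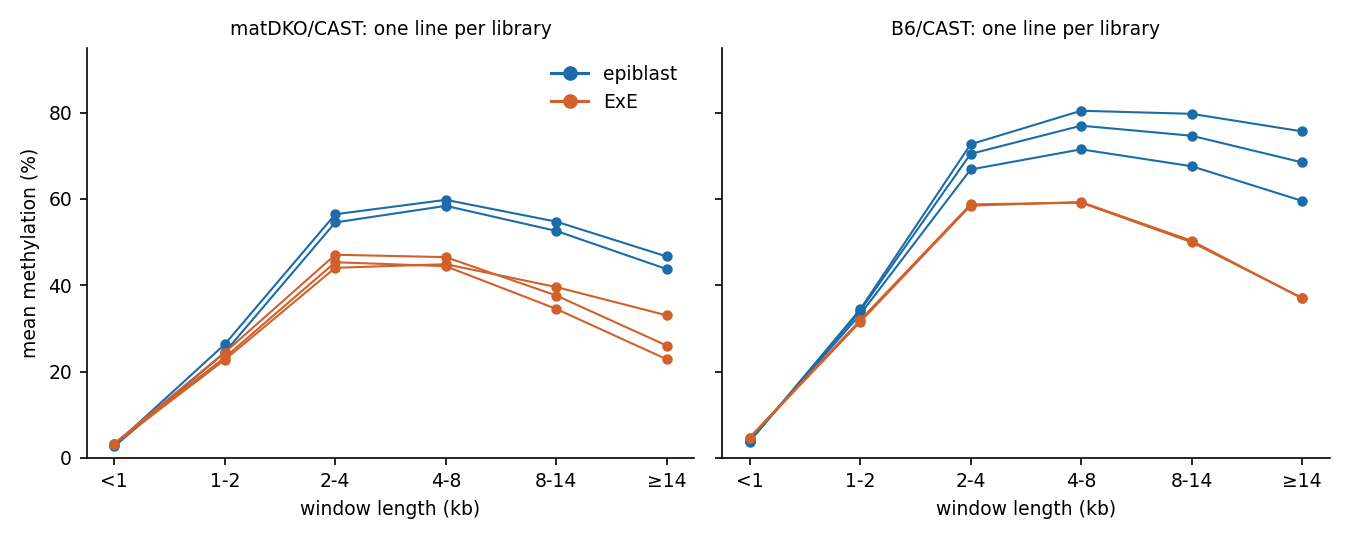
Mean methylation in percent by window length, one line per library, in matDKO/CAST (left) and B6/CAST (right). Under 2 kb the tissues are at most 2.20 points apart in either genotype, and the gap widens from 2 kb on, up to 17.9 points in matDKO/CAST and 30.9 points in B6/CAST at 14 kb and more.

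Position relative to genes separated the windows as well. Intergenic windows were at 53.2% and 51.3% in the epiblast and 37.7%, 36.7% and 33.9% in ExE, a difference of 16.1 points (SE 1.48). Other windows in protein-coding genes differed by 10.9 points (SE 1.00), and windows with a protein-coding start by 7.10 (SE 0.819). The B6/CAST differences were 21.7, 14.1 and 10.1 points in the same order. Within genes, windows that touch an exon differed by 9.17 points in matDKO/CAST and windows without an exon by 13.8. The gap between genes and intergenic space was also there among windows of 4 to 8 kb, where gene windows differed by 11.95 points and intergenic windows by 16.2. By chromosome the difference ran from 10.7 points on chromosome 11 to 14.5 on chromosome 13.

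Levels in CAST/B6, whose libraries entered none of the matDKO/CAST values, ordered the windows too. Windows under 20% in the CAST/B6 epiblast were higher in matDKO/CAST ExE by 0.96 points, at 4.10% in the epiblast and 5.06% in ExE. Windows of 20 to 40%, 40 to 60% and 60 to 80% had differences of 2.68, 7.05 and 14.3 points. Windows of 80% and more, 135660 in all, differed by 14.5 points. By deciles of the CAST/B6 tissue difference, the matDKO/CAST difference went up from 3.69 points in the lowest decile to 19.23 in the highest. The B6/CAST difference went up from 4.35 to 28.3 over the same deciles. In the highest decile the matDKO/CAST epiblast was at 49.0% and ExE at 29.7%.

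Means over 1 Mb of the genome left almost no exception. In limma 2283 of 2292 bins (99.6%) had a higher epiblast mean at an adjusted p under 0.05, and no bin was called higher in ExE. In 2289 bins both epiblast libraries lay above all ExE libraries. The differences ran from 2.51 to 30.3 points with a median of 14.1. When the mean of each library was subtracted, 0 bins were called (limma adjusted p under 0.05). At an unadjusted p under 0.05 there were 366 bins (16.0%) above and 224 (9.77%) below the average difference. No single 1 Mb bin could thus be told from the genome-wide shift with 5 libraries, which does not show that the shift was uniform.

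The largest bin difference lay on chromosome 17 from 11000001 to 12000000, a stretch without a protein-coding start. It was at 57.3% and 54.7% in the epiblast and 31.0%, 24.8% and 21.3% in ExE, a difference of 30.3 points (SE 2.95; limma adjusted p = 0.00053). The bin of Cntn5, a neuronal adhesion protein, on chromosome 9 from 10000001 differed by 27.5 points. The bin of the casein genes (Csn1s1, Csn2, Csn3), which encode milk proteins, on chromosome 5 from 87000001 differed by 26.7 points. In these 3 bins no library of one tissue reached the range of the other. The next were a bin with Fndc1 and Rps6ka2 on chromosome 17 (26.2 points) and one without a coding start on chromosome 12 (25.7 points).

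The 5 smallest bin differences ran from 2.51 to 4.33 points. The bin of Ank2, an ankyrin, and Neurog2, a neurogenic transcription factor, on chromosome 3 from 127000001 was at 49.7% and 46.3% in the epiblast and 46.0%, 45.1% and 45.4% in ExE. Its difference of 2.51 points did not pass (limma adjusted p = 0.225). The bin of Zic1 and Zic4, zinc finger factors of the neural plate, on chromosome 9 from 91000001 had overlapping tissues, a difference of 3.97 points and an adjusted p of 0.166 in limma. The others were a bin with Osbpl9 and Dmrta2 on chromosome 4 (3.85 points), one with Cdk2 and Cd63 on chromosome 10 and one of Gm-named genes on chromosome 2 (4.33 points each).

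Gene density ordered the bins. The 223 bins without a coding start had a median difference of 17.4 points, the 1326 bins with 1 to 9 starts 15.1, the 626 bins with 10 to 29 starts 11.5 and the 117 bins with 30 or more 9.31. In B6/CAST the medians were 30.4, 21.0, 14.6 and 11.8 points. Across 2222 bins measured in both genotypes, the differences had a Pearson r of 0.770, a description over bins that share gene and CpG density. The difference was lower in matDKO/CAST in 2147 of the 2222 bins, with a median of -4.88 points. This median was -2.63 without the unnumbered B6/CAST epiblast library, -7.36 without B6/CAST epiblast replicate 1 and -2.87 with both crosses as the wild type. The interaction was called in 0 bins (0.0%), with a smallest limma adjusted p of 0.325 and 319 bins at an unadjusted p under 0.05, all lower in matDKO/CAST. With the mean of each library subtracted, 246 bins were lower and 83 higher at that p. The count of called bins rested on single libraries. Without B6/CAST epiblast replicate 1, the library with the lowest mean of its group, 582 bins were called, and without matDKO/CAST ExE replicate 3, 150.

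**Figure D3:**
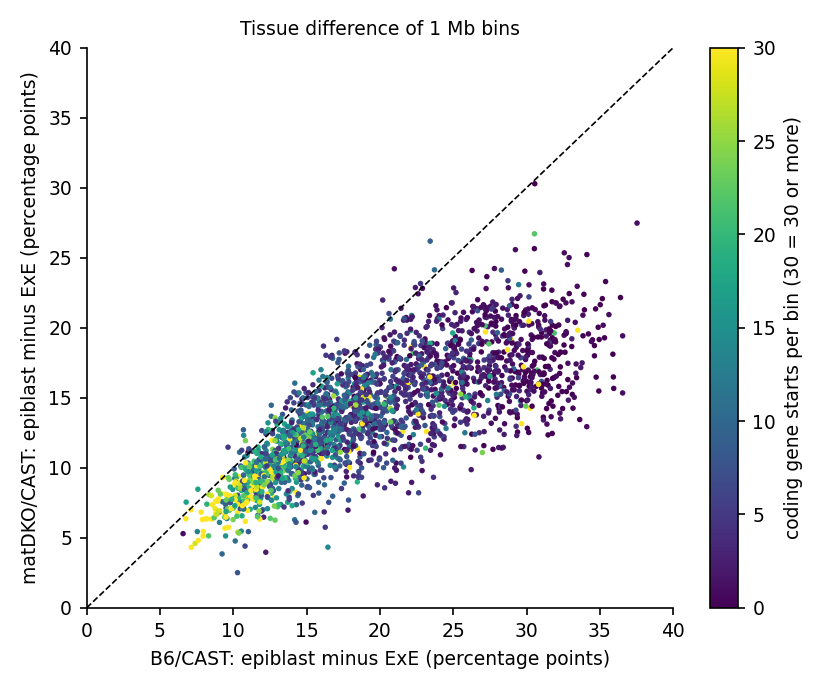
Epiblast minus ExE in percentage points for 1 Mb bins, B6/CAST on the horizontal and matDKO/CAST on the vertical axis, one point per bin, coloured by the number of protein-coding gene starts, with the line of equal differences dashed. Most bins lie under the line (2147 of 2222), and the gene-poor bins lie farthest from it.

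The windows with the largest differences were named as examples. They were chosen for size among windows without overlap at an unadjusted p under 0.05, and none passed in the 5-library fit. A window of 4719 bp within Plce1, a phospholipase C, at chr19:38587646-38592364 was at 80.8% and 89.3% in the epiblast and 7.14%, 9.52% and 21.1% in ExE. The difference was 72.5 points (SE 7.10), with a limma adjusted p of 0.0934 in the 5-library fit and 0.00296 in the 15-library fit. In B6/CAST the same window was at 78.9% and 46.9%, so the direction was the same and ExE was less low. In CAST/B6 the tissues overlapped, at 76.0%, 85.3% and 95.8% in the epiblast and 92.3% and 81.8% in ExE. At E7.5 the wild-type means were 83.1% in the epiblast and 66.4% in ExE.

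The window in Sele, the adhesion molecule E-selectin, at chr1:164050785-164054209 was at 100% and 95.5% in the epiblast and 33.5%, 33.8% and 13.9% in ExE, a difference of 70.6 points. Intergenic windows nearest to Drd3, a dopamine receptor, to Auh, a mitochondrial hydratase, and to Igfbp7, a growth factor binding protein, differed by 68.8, 68.2 and 67.2 points. In all 5 windows the matDKO/CAST epiblast was at 69.2% or more in each library and ExE at 33.8% or less. The B6/CAST ExE libraries ran from 35.4% to 61.2% in them, and those of CAST/B6 from 42.3% to 92.3%.

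The largest differences towards ExE were smaller in size. An intergenic window 17883 bp from the start of Nr2f2, a nuclear receptor gene, at chr7:70347777-70349928 was at 18.2% and 0% in the epiblast and 57.1%, 65.5% and 63.6% in ExE. The difference was -53.0 points (SE 7.66; limma adjusted p = 0.0934 in the 5-library fit and 0.00648 in the 15-library fit). B6/CAST was at 15.6% and 73.5%, and E7.5 wild type at 10.96% and 41.9%. In CAST/B6 the epiblast was at 4.17%, 35% and 2.86% and ExE at 48.1% and 50%, so ExE was higher in all of these groups. A window in Igf2, the imprinted insulin-like growth factor, at chr7:142651480-142654327 was at 27.3% and 21.4% against 52.7%, 79.7% and 85.2%, a difference of -48.2 points. In B6/CAST it was at 42.7% and 80.6%, and at E7.5 at 39.95% and 65.8%. In CAST/B6 the tissues overlapped, at 74.2%, 77.0% and 55.1% against 85.9% and 65.6%.

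Of the other 3 windows, that of Tagln2 had the epiblast higher in B6/CAST. The window in Tagln2, an actin-binding protein, at chr1:172503224-172505590 was at 0% and 23.1% in the epiblast and 61.1%, 53.9% and 68.8% in ExE, a difference of -49.7 points (15-library limma adjusted p = 0.00300). In B6/CAST the epiblast was at 80.8% and ExE at 69.2%, so that the tissues were the other way round. In CAST/B6 they overlapped, and the E7.5 means were 79.97% and 77.6%. The interaction term was -61.3 points and did not pass (limma adjusted p = 0.637). Windows in Hsd17b4, a peroxisomal enzyme, and Zfp64, a zinc finger factor, differed by -52.4 and -48.4 points. Their B6/CAST levels were 73.1% and 90.9%, and 74.2% and 79.3%, epiblast first, and the B6/CAST libraries of the Zfp64 window overlapped. In CAST/B6 the Hsd17b4 window had the epiblast higher, at 100%, 84.3% and 94.9% against 38.9% and 65.9%, and that of Zfp64 overlapped, at 77.8%, 93.6% and 59.4% against 85% and 52.6%. At E7.5 the means were 86.8% and 80.5% for Hsd17b4 and 81.3% and 79.1% for Zfp64.

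Single windows with the largest interaction went both ways. The largest negative interaction, -77.9 points, was in an intergenic window whose nearest start is Dsel, an epimerase gene, at 30% and 0% in the matDKO/CAST epiblast and 57.1%, 15.4% and 63.6% in ExE, so that its tissues overlapped. B6/CAST was at 76.9% and 29.4% there. A window within Pex19, a gene of peroxisome assembly, had the reverse, at 68.5% and 58.8% against 5%, 11.1% and 0%, with B6/CAST at 36.9% and 50.7% and an interaction of 72.0 points. Its B6/CAST libraries overlapped, at 60.5%, 25.9% and 24.4% against 54.9% and 46.4%. In CAST/B6 the epiblast was higher there, at 77.8%, 37.7% and 53.8% against 37.1% and 20.6%, and the E7.5 means were 50.1% and 45.5%. At the Dsel window CAST/B6 had ExE higher, at 40.9% and 28.1% (1 library without a value) against 73.1% and 58.8%, and the E7.5 means were 75.7% and 49.9%. Neither passed (limma adjusted p = 0.637).

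The 503 windows called higher in ExE in the 15-library fit fell into these same kinds. Of them 377 (74.95%) lay in genes without a start, against 47.1% of all windows tested, 84 were intergenic and 42 (8.35%) held a start, against 8.70% of all windows tested. An exon was touched by 70.6%, against 48.3% of all windows. For comparison, 53.9% of the windows called higher in the epiblast were intergenic, against 44.2% of all. The 85 windows with a higher ExE mean in both wild-type crosses had a median length of 2620 bp. Their median levels were 19.07% in the epiblast and 50.8% in ExE of matDKO/CAST, and 41.3% and 61.7% in B6/CAST.

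The 278 windows with a higher ExE mean in neither wild-type cross were longer than those 85 and mostly within genes. Their median length was 5557 bp, against 5553 bp over all windows tested. Gene windows without a start made up 215 of them (77.3%), against 74.95% of all 503 called. The remaining 140 of the 503 had a higher ExE mean in 1 cross. Among all 167307 windows tested, 141420 had a higher ExE mean in neither cross and 6004 in both, so the 278 are no excess. The matDKO/CAST medians of the 278 windows were 47.1% in the epiblast and 71.2% in ExE, and the B6/CAST medians were 85.7% and 77.3%. Of these 4 medians that of the matDKO/CAST epiblast was the low one. Since the windows were called on the matDKO/CAST values, these medians are a description. Examples, picked after their values were seen, were windows in Nid2, a basement membrane protein, at 8.33% and 4.35% against 58.9%, 40.6% and 47.2%, and in Cdk19, a kinase of the Mediator complex, at 13.8% and 16.7% against 48.8%, 52.0% and 71.1%. In the B6/CAST epiblast these were at 53.0% and 75.8%.

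In 12 of the 85 windows with a higher ExE mean in both wild-type crosses (14.1%, against 8.70% of all) lay a start, those of Lhx9, Pax8, Osbpl9, Shb, Shisal2a, Otx2, Catsperg1, Gsn, Mroh6, Hif3a, Dcun1d3 and Aoc3. A window with a start of Lhx9, a LIM homeobox factor of the gonad and brain, at chr1:138841771-138842956, also picked after its values were seen, was at 12.4% and 20.8% in the epiblast and 52.4%, 59.6% and 54.6% in ExE. In B6/CAST it was at 17.6% and 61.5%. A window with an alternative start of Otx2, a homeobox factor of the epiblast and anterior brain, at chr14:48666638-48668061 was at 0% in both epiblast libraries and at 31.6%, 23.7% and 28.6% in ExE. Its B6/CAST levels were 8.83% and 36.1%. A window with a start of Shb, a signalling adaptor, was at 17.5% and 17.9% against 56.7%, 48.5% and 46.8%, and in B6/CAST at 47.8% and 53.4%.

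**Figure D4:**
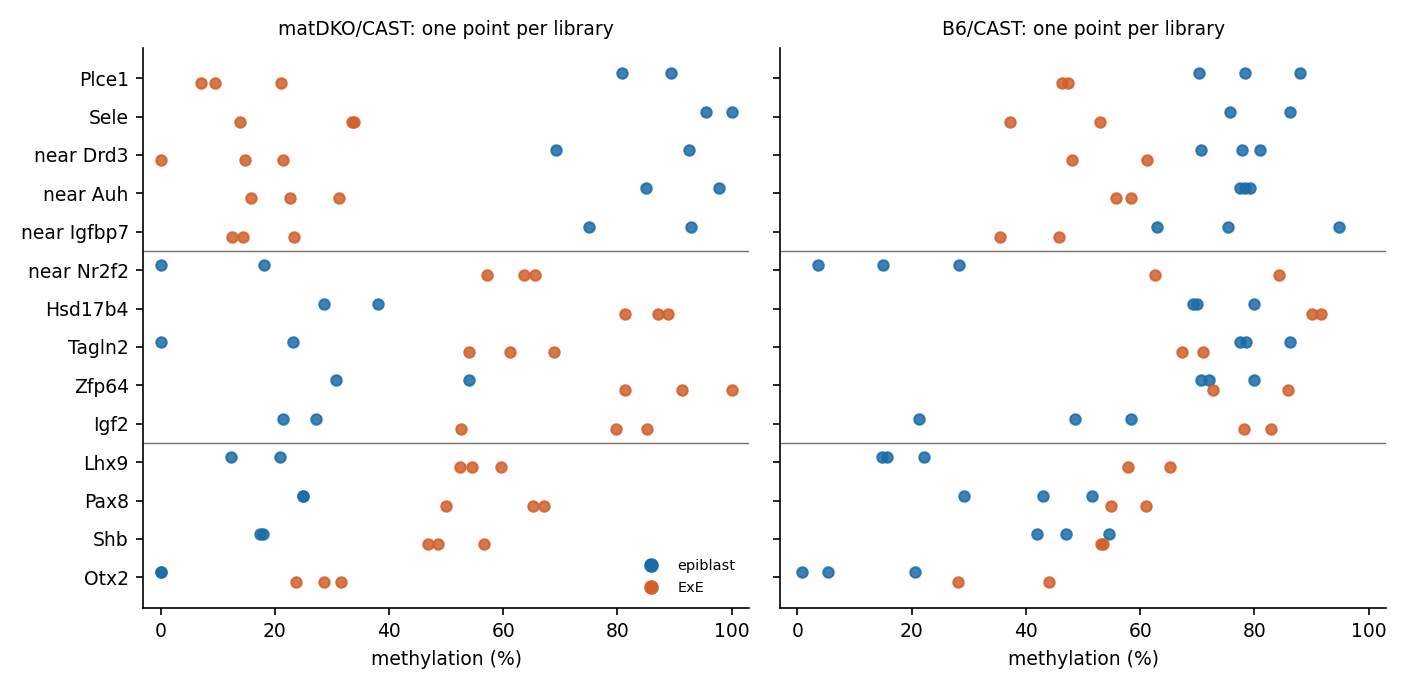
Methylation in percent of named windows, one point per library, in matDKO/CAST (left) and B6/CAST (right); the upper block was largest with the epiblast higher, the middle block largest with ExE higher, and the lower block holds start windows picked after their values were seen. The tissues do not overlap in matDKO/CAST by the choice of windows, whereas in B6/CAST the Tagln2 window has the epiblast above ExE.

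Lists of genes were then followed at the window that holds the gene start. Over all 11191 such windows the median difference was 3.52 points, 3011 (26.9%) had the epiblast above and 552 (4.93%) had ExE above without overlap. In the 15-library fit 944 of 8367 were called with the epiblast higher and 10 with ExE higher. Transcription factors of later development stood on the ExE side, with a median of -5.17 points over 29 measured windows. ExE lay above the epiblast in 12 of them, the reverse in none, and 3 differences were positive. Averaged over the list, epiblast libraries had 5.36% ± 0.514 (SD, n = 2) and ExE libraries 12.6% ± 1.58 (SD, n = 3). In B6/CAST, over 23 windows, these were 10.4% ± 2.08 (SD, n = 3) against 18.8% ± 1.30 (SD, n = 2).

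Among these factors, Pax8, which acts in thyroid and kidney, had a start window at chr2:24474714-24479114 with 25% in both epiblast libraries and 50%, 65.2% and 67.2% in ExE. It was the only member of 21 called in the 15-library fit (limma adjusted p = 0.0220), at -35.8 points. The start window of Tbx5, a heart and forelimb factor, was at 0% and 27.3% against 72.7%, 32.3% and 37.0%, which did not pass (15-library limma adjusted p = 0.0697). That of Lhx5, a forebrain factor, was at 0% in both epiblast libraries and 6.62%, 14.97% and 25.9% in ExE, and did not pass either (15-library limma adjusted p = 0.184). The Hox genes, which pattern the body axis, had a median of -2.46 points over 25 windows, with ExE above in 5, the epiblast above in none and 0 of 18 called (limma). At Hoxd9 a single ExE library, at 44.1%, gave most of the difference of -18.2 points, with the other ExE libraries at 10.6% and 0%.

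Genes of gastrulation signalling had a median of -2.16 points over 15 windows, with ExE above in 5 and the epiblast above in 2. None of 11 was called in the 15-library limma fit. The largest were Foxh1, a partner of Nodal signalling, at 4.35% and 3.33% against 29.3%, 8.00% and 21.1%, and Wnt5a, a Wnt ligand, at 0% in both epiblast libraries and 9.93%, 16.0% and 10.9% in ExE. The start window of T, the mesoderm factor Brachyury, was nearly unmethylated in both tissues and differed by -1.99 points.

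Germline genes, silenced in the embryo by promoter methylation, had a median of 10.9 points over 20 windows, and 18 differences were positive. The epiblast lay above ExE in 6 (30%), close to the share of all start windows, and below it in 1. Mov10l1, a helicase of the piRNA pathway, was at 74.1% and 73.0% in the epiblast and 35.2%, 34.4% and 34.4% in ExE, and was the only member of 16 (6.25%, against 11.3% of all start windows) called in the 15-library fit (38.9 points; limma adjusted p = 0.00456). In B6/CAST it was at 75.7% and 44.0%. Dmrtb1, a spermatogenic factor, had epiblast libraries far apart, at 33.8% and 84.6% against 9.02%, 27.9% and 25% in ExE. Asz1, another piRNA pathway gene, was at 70.0% and 44.7% against 39.7%, 32.7% and 23.1%. Averaged over the list, epiblast libraries had 39.8% ± 2.11 (SD, n = 2) and ExE libraries 26.2% ± 3.31 (SD, n = 3).

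Start windows of trophoblast and epiblast genes were examined against the tissue labels. Elf5, a trophoblast factor whose promoter is methylated in the embryo and not in trophoblast, had a start window at chr2:103407838-103413656 with 71.7% and 100% in the epiblast and 40.2%, 53.1% and 36.8% in ExE. The difference of 42.5 points was called in the 15-library fit (limma adjusted p = 0.00683). The window spans 5819 bp and so covers far more than the promoter, and in B6/CAST it was at 78.2% and 71.2%. Esrrb, a nuclear receptor of trophoblast stem cells, was at 50% and 47.1% against 26.9%, 19.9% and 14.3% (15-library limma adjusted p = 0.0194). Cdx2 had overlapping tissues, and Tfap2c was at 0% in all 5 libraries. Over 11 trophoblast genes the median was 2.24 points, with the epiblast above in 2 and ExE above in 1.

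Dppa4, a pluripotency gene, was at 68.2% and 55.6% in the epiblast and 22.7%, 42.0% and 20.2% in ExE (15-library limma adjusted p = 0.0384), and in B6/CAST at 63.6% and 27.4%. Pou5f1, which encodes OCT4, had overlapping libraries, at 22.8% and 0% against 20.3%, 38.3% and 8.70%. Over 10 epiblast and pluripotency genes the median was -0.57 points, with the epiblast above in 3 and ExE above in 2. Nanog, Utf1 and Eomes were not measured in all 5 libraries. These values hold no expression. Of the 8 genes taken to check the labels (Pou5f1, Nanog, Utf1, Dppa4, Elf5, Tfap2c, Cdx2 and Eomes) 5 were measured, and of these Elf5 and Dppa4 had the epiblast above without overlap, as had 26.9% of all start windows. The labels could therefore not be checked by these genes, since the direction at Elf5 was also that of Dppa4 and of most windows.

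**Figure D5:**
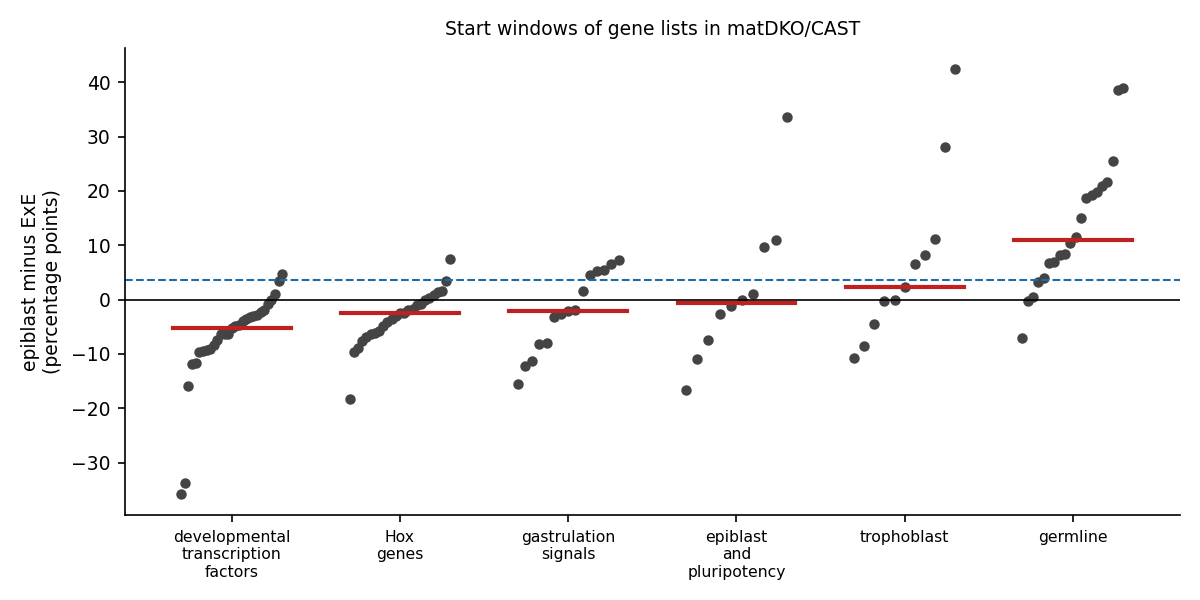
Epiblast minus ExE in percentage points at the window with the gene start in matDKO/CAST, one point per window, with the median of each list in red and the median of all 11191 start windows (3.52) dashed. Developmental factors lie mostly under 0 (median -5.17) and germline genes mostly over it (median 10.9).

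Large gene families in CpG-poor clusters had median differences above that of all windows. Their calls are to be read against 19.6% of all windows, 11.3% of all start windows and 22.3% of start windows of 14 kb and more called with the epiblast higher in the 15-library limma fit. Olfactory receptor genes had a median of 17.8 points over 500 start windows, with 92 of 431 (21.3%) called, near the share of the longest start windows. Vomeronasal receptor genes had 20.5 points over 129 windows, with 34 of 118 (28.8%) called. Placental prolactin, Psg and cathepsin genes, which are expressed in trophoblast later in gestation, had 20.1 points over 19 windows, with 3 of 18 (16.7%) called. Their mean was 44.0% and 41.2% in the epiblast and 28.95%, 23.1% and 23.6% in ExE. No start window of these 3 families was called higher in ExE in limma. In B6/CAST the median differences were 30.8, 32.7 and 30.8 points in the same order. Clustered protocadherin and Zfp genes had medians of 2.94 and 3.50 points, near that of all start windows.

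Gene bodies, taken as the mean over at least 5 windows without a start, were a later addition, made with the data in view. In limma 2935 of 5882 (49.9%) were called with the epiblast higher and 7 (0.119%) with ExE higher, and the median difference was 9.18 points. With the mean of each library subtracted the split was 310 above and 1177 below the average, so that most gene bodies called there had a smaller tissue difference than the genome-wide mean. In B6/CAST 3627 of 5539 (65.5%) were called with the epiblast higher and 22 (0.397%) with ExE higher. The interaction was called in 0 of 5539 (0.0%; smallest limma adjusted p 0.280), with 357 lower and 18 higher in matDKO/CAST at an unadjusted p under 0.05. The lower ones ran from 181 without B6/CAST ExE replicate 2 to 857 without B6/CAST epiblast replicate 1.

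The gene body of Itgal, an integrin of white blood cells, was at 65.9% and 67.8% in the epiblast and 33.9%, 32.2% and 23.6% in ExE, the largest difference at 37.0 points (SE 3.87; limma adjusted p = 1.8e-05). Enpp2, which encodes autotaxin, was at 78.1% and 69.6% against 44.4%, 42.1% and 27.1%. Gfra2, a neurturin receptor, was at 63.5% and 63.9% against 29.2%, 29.1% and 27.7%. Stk32a, a kinase gene, had the second largest difference (36.1 points). Others among the 15 largest were Nox3, an oxidase of the inner ear (34.3 points), Cyp7b1, a steroid hydroxylase (30.8), and Sema3a, an axon guidance factor (30.2). All of these kept their call in each fit with 1 ExE library left out. Fits without 1 epiblast library keep a single epiblast library and are not used here. In B6/CAST the 6 bodies other than Stk32a differed by 25.1, 27.2, 23.1, 35.5, 34.4 and 31.1 points.

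The bodies of the listed genes were counted in the same way. Among the developmental factors 8 of 21 bodies were called with the epiblast higher and 0 with ExE higher (limma), beside 49.9% of all bodies called with the epiblast higher. They included Wt1, a kidney and gonad factor (24.6 points), Pax3 (20.9) and Pax5 (18.7). Piwil1, a germline Argonaute protein, had a body at 57.3% and 55.2% in the epiblast and 36.1%, 35.6% and 28.4% in ExE. Of 4 Hox gene bodies 1 was called, Hoxd3, with ExE higher by 10.1 points at 6.82% and 13.5% against 22.3%, 16.6% and 22.1%.

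The 7 gene bodies called higher in ExE were Map1s, Cxxc5, Pikfyve, Gata2, Stx7, Hoxd3 and Fnip1, and each lost its call without 1 library or another. Of 11 bodies on the trophoblast list 4 were called with the epiblast higher in limma (Ets2, Fgfr2, Gata3 and Wnt7b) and 1 with ExE higher, Gata2. The 11 bodies had a median difference of 7.19 points. The annotated Fgfr2 body spans chr7:130162451-133123350 with 316 windows, against a median of 9 per body. Its value is therefore that of a large region. Gata3 lost its call with a replicate block (limma adjusted p = 0.0817) and with a trend and robust eBayes (limma adjusted p = 0.0641). Wnt7b lost its call with the block (limma adjusted p = 0.0559). Gata2, a trophoblast and blood factor, was at 8.20% and 11.1% in the epiblast and 24.9%, 19.3% and 17.8% in ExE (-11.03 points, SE 3.70; limma adjusted p = 0.0177). It was also called in B6/CAST, where Map1s, Stx7 and Hoxd3 had fewer than 5 windows measured in all 10 libraries, at 16.2% and 32.3% (limma adjusted p = 0.00057). Map1s, a microtubule-associated protein, was at 55.0% and 46.1% against 65.2%, 72.9% and 60.8% (limma adjusted p = 0.00364). Without epiblast replicate 3 its adjusted p was 0.0711, and without epiblast replicate 1 that of Gata2 was 0.113. Cxxc5, a zinc finger protein that binds CpGs, differed by -13.3 points in matDKO/CAST and by -9.97 in B6/CAST. Pikfyve, a lipid kinase, was higher in ExE by 12.5 points in matDKO/CAST and lower by 4.55 in B6/CAST.

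Maternal imprints are set in the oocyte by the enzymes that the knockout removed. They were taken as the 15 H3K4me3 peaks on maternal germline differentially methylated regions (gDMRs) that the study lists. Their mean over overlapping windows was 43.5% and 34.4% in the matDKO/CAST epiblast and 33.8%, 37.0% and 31.5% in ExE, so the tissues overlapped. The difference was 4.85 points (SE 4.80) with a median of 2.24, against 11.9 points in B6/CAST, where the levels were 70.7% and 58.9%. In 13 of the 15 the tissues overlapped, and in the other 2 the epiblast lay above, as it did in 40.4% of all windows. Slc38a4, an amino acid transporter gene expressed from the paternal allele, was at 65.6% and 51.9% against 38.1%, 31.8% and 26.6%, and the Kcnq1ot1 region, the start of a long noncoding RNA, at 35.1% and 24.0% against 19.3%, 16.9% and 21.9%. Windows that overlap a region can reach past it, so these values include flanking sequence. With windows whose midpoint lay in the region, 11 of the 15 were measured. Their means were 31.5% in the epiblast and 27.7% in ExE of matDKO/CAST, and 65.9% and 56.4% in B6/CAST.

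The paternal gDMRs, set in the male germline and thus not touched by the knockout, had the epiblast above ExE at both. H19 was at 58.1% and 53.6% against 37.8%, 39.8% and 51.6%, a difference of 12.8 points, and Meg3 differed by 7.09 points. Long terminal repeats (LTRs) of endogenous retroviruses at non-canonically imprinted genes, of which 7 of 8 were measured, differed by 12.3 points (SE 3.98) with the epiblast above in 3 and overlap in 4, beside 40.4% of all windows with the epiblast above. The repeats are much shorter than the windows over them, so the values are largely those of their surroundings. Of a pair of LTRs at Jade1, RLTR31B_Mm was at 73.3% and 90.0% against 35.7%, 54.2% and 28.6%, the largest difference of the 7. The other, RLTR20C, overlapped, at 40.9% and 50% against 47.8%, 36.5% and 51.6%, a difference of 0.15 points against 34.5 in B6/CAST. RLTR20B3 at Sall1 differed by -3.29 points, against 29.8 in B6/CAST. The one at Gab1 (RLTR15) was at 58.1% and 59.9% against 30.9%, 40.1% and 54.6%. The window over the LTR at Sfmbt2 (RLTR11B) was low in both tissues and overlapped, at 0% and 20% against 18.9%, 15.3% and 21.6%. Of 20 other transcribed LTRs measured, the epiblast lay above ExE in 10 and the rest overlapped, against the same 40.4%, with a difference of 14.9 points (SE 1.93).

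Directions of small differences depend on what is taken as no change. Subtracting the mean of each library lowers each difference by 12.8 points, so that windows in genes (10.9 points) came to -1.92, windows with a start (7.10) to -5.74 and the maternal gDMRs (4.85) to -7.99. The trophoblast start windows (mean 6.82 points) came to -6.02, the epiblast ones (1.63) to -11.2 and the non-canonical LTRs (12.3) to -0.51. Intergenic windows, at 3.30, and germline starts, at 0.72, kept a positive mean.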

How the data were processed

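Whole-genome methylation was measured by PBAT in E6.5 epiblast and ExE of matDKO/CAST, B6/CAST and CAST/B6 embryos. The submitters' processing notes name Trim Galore 0.4.4, Bismark 0.20.0 and GRCm38, and by the study's methods strain SNPs were masked and matDKO/CAST reads were aligned in additional steps because of 129 alleles. The authors deposited percent methylation per library for windows of 100 CpGs, without read coverage and not scaled between libraries. Lower coverage makes a window's percentage coarser, and its depth is unknown. The columns of matDKO/CAST ExE replicates 1 and 2, both B6/CAST ExE libraries and the unnumbered B6/CAST epiblast library carry a mark of a repeated import that is not explained. Samples were grouped by their labels.

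Autosomal windows with a value in all libraries of a comparison were used as deposited. Tissues were contrasted by limma 3.58.1 under R 4.3.3, over windows, 1 Mb bins (at least 20 windows) and gene bodies (at least 5 windows), with default eBayes, Benjamini-Hochberg adjustment and a threshold of 0.05, and the fit was tested on simulated data. For means over libraries the two-sided exact permutation test was used. Genes were taken from GENCODE vM21, and tables were made with Python 3.11.15, numpy 2.4.6, pandas 2.3.3 and matplotlib 3.10.9. Named windows were the 5 largest without overlap in each direction at an unadjusted p under 0.05, counting windows within 50 kb once. The same was done for the interaction, and for bins the 5 largest and 5 smallest were taken. For gene lists the 3 largest in each direction were eligible, and for gene bodies the 15 largest called with the epiblast higher and all called with ExE higher. The members and lists were chosen with earlier results of these data known. The alternatives were other scales, spread estimates, centring, bins, wild-type crosses, missing-value rules, a replicate block and leaving out each replicate. The allele-specific E7.5 values were not used here.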

Additional observations from a re-analysis of the deposited data

Results flagged for a closer look

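In 4 named windows and 1 gene body, all libraries of matDKO/CAST lay on one side of the tissue comparison and all of B6/CAST on the other. By this criterion the difference between the genotypes was not tested, and in the limma interaction none of them passed (adjusted p = 0.637 for the windows and 0.653 for the gene body). The windows had been picked for the size of their tissue difference or interaction.

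In the window of Tagln2 at chr1:172503224-172505590, ExE was higher in matDKO/CAST and the epiblast higher in B6/CAST, an interaction of -61.3 points. In CAST/B6 its tissues overlapped. The window at chr6:81071762-81085932, in gene-poor sequence whose nearest start is Gcfc2, was at 8.33% and 28.6% in the matDKO/CAST epiblast and 53.7%, 42.0% and 38.5% in ExE. In B6/CAST it was at 66.6% and 23.3%, an interaction of -69.6 points, and at E7.5 the means were 78.9% and 50.1%. The window at chr15:68619825-68633462, nearest to Khdrbs3, was at 14.3% and 18.4% against 39.2%, 35.6% and 26.3%, and in B6/CAST at 86.5% and 36.0%, an interaction of -67.8 points. At E7.5 its means were 74.5% and 52.8%. In CAST/B6 the epiblast was above ExE in both of these windows, in the first with 1 ExE library measured.

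The window at chr13:62556611-62558614, which holds starts of the zinc finger genes Zfp934 and Zfp935, went the other way. It was at 85.5% and 100% in the matDKO/CAST epiblast and 27.5%, 27.8% and 50% in ExE, against 29.6% and 59.7% in B6/CAST, an interaction of 87.8 points. In CAST/B6 its tissues overlapped, at 53.8%, 59.5% and 45.7% against 80% and 50%. At E7.5 the epiblast was higher, at 46.5% against 40.4%. The gene body of Pikfyve, described above, had an interaction of -17.1 points.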

How the results depend on the processing

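The tables hold no coverage, so no minimum of reads could be applied. No window passed in the 5-library fit on the percent or logit scale, with a trend and robust eBayes, with every second window, with a looser rule for missing values, with a difference of at least 20 points, or without any 1 library. With the spread of all 15 libraries 33301 windows were called, and 32456 with at least 20 points as well. Bins of 250 kb gave 3833 calls of 4076. With the mean of each library subtracted, 0 bins were called, and gene bodies went from 2942 to 1487. The maternal gDMR difference became -7.99 points and the mean of the developmental factors -20.03 points. The 5 bins with the smallest differences turned negative, on chromosome 3 from 127000001 to -10.3 points, on chromosome 4 from 109000001 to -8.99, on chromosome 9 from 91000001 to -8.87, and on chromosomes 10 and 2 to -8.51. This follows from the construction, as 12.8 points were subtracted. As a ratio, the genotype difference was 0.163 percentage points of ExE in percent of the epiblast, in place of -4.16 points of methylation. Leaving out 1 library at a time, bins with a called interaction ran from 0 to 582, and the cause was not tested.

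Replicate numbers did not pair the libraries: deviations of libraries with the same number had correlations of 0.0175 and 0.0144. With a replicate block the mean difference was 13.3 points, and 0 windows, 2287 bins and 2755 gene bodies were called. Among the gene bodies named above Fnip1, Gata3 and Wnt7b lost their calls, and so did Pax7, one of the developmental factors counted. Among the values of named windows, bins, gene bodies, classes and lists, 714 values under an alternative kept their direction and side of the threshold, 24 fell to the other side of it and 35 rose past it, the last mostly in the 15-library fit. A further 19 moved by more than the spread, 17 of them with the library mean subtracted and the others for LTR lists limited to windows with their midpoint in the repeat (1 repeat each, 20.6 and -9.71 points), and 5 reversed, the bins above.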
